A study of Mus musculus with 17 samples.

Results

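The genes described here are 40 genes of mitosis and cytokinesis, chosen by name for their known work in the spindle, the kinetochore, the checkpoints and the cleavage furrow. All 40 were among the 23461 genes of the count table, each with 1 row, and all 40 were among the 13721 genes that passed the filter on low counts. The samples are FACS-sorted liver hepatocytes of male mice, 2 to 3 months old, profiled by RNA sequencing. There were 5 wild type untreated samples, 5 wild type samples given carbon tetrachloride (CCl4), 4 untreated samples of a double knockout of Yap and Taz (the latter encoded by Wwtr1) and 3 knockout samples given CCl4. CCl4, a solvent that injures hepatocytes, was dosed at 1 ug/g, 7 times with 3 days between doses, and cells were collected 3 days after the last dose. Not given in the sources used here: strain, alleles, and the time and cell type of the knockout. The labels number the samples of a group separately but do not tie each to its own animal, so p-values measure the spread between these samples.

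A dividing cell copies its chromosomes, then condenses them, attaches each sister chromatid to spindle microtubules at a kinetochore, and waits at a checkpoint until every kinetochore is attached. The anaphase-promoting complex then marks cyclin B and securin for destruction, the sisters part, and a contractile ring splits the cell. Genes for these steps are switched on together late in the cell cycle. In resting cells the DREAM complex represses many of them through a short promoter sequence called the CHR, and in cycling cells B-MYB and FOXM1 act at the same genes. NF-Y, which binds CCAAT boxes, sits at many of these promoters. Adult hepatocytes rarely divide but re-enter the cycle after injury, and YAP and TAZ are transcriptional coactivators, held back by the Hippo kinases, that can promote growth.

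Promoters in the RefSeq set (build GRCm38.p6, the assembly behind mm10) cover 250 bases before to 50 bases after a start site, and 34 of the 40 genes had an entry. The CHR was searched as TTTGAA or TTTAAA and the NF-Y box as CCAAT, each on both strands. TTTAAA reads the same on both strands, and the motifs searched do not contain each other. The 34 genes had 36 entries, and a gene counted once where any of its entries held the motif. The shares of all promoters count each entry. Either CHR form was found for 29 of the 34 genes (85.3%), against 27.6% of all 32851 promoters. Within 50 bases of the start on either side it was in 26 of the 34 (76.5%), against 8.28% of all. TTTGAA alone was in 76.5% of these promoters against 17.9% of all, and CCAAT in 70.6% against 37.4%. At least 2 CCAAT boxes were in 50% against 11.7%. Bub1, Mad2l1, Nusap1, Nuf2 and Cit had neither CHR form in this window. A match is a description of the letters and does not show that a factor binds there.

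The 6 promoters below are the CHR-holding promoter with the smallest adjusted p for CCl4 in the knockout from each of 6 role groups, shown from 240 bases before the start through the first 30 bases from it. Capitals mark each CHR (TTTGAA, its reverse TTCAAA, or TTTAAA) and each CCAAT box (CCAAT or its reverse ATTGG).
Top2a (chr11:99024160-99024429, minus strand): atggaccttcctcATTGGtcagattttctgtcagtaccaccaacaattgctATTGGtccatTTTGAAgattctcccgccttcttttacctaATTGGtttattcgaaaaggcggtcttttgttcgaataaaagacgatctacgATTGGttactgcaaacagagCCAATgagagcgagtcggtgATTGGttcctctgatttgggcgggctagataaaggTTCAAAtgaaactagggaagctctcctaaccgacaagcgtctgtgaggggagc
Ccnb2 (chr9:70421525-70421794, minus strand): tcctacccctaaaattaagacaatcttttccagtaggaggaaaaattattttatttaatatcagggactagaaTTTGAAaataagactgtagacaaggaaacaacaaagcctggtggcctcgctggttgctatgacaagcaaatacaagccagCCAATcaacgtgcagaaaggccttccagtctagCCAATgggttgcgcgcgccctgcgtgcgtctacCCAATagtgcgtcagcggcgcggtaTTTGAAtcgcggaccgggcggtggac
Birc5 (chr11:117848997-117849266, plus strand): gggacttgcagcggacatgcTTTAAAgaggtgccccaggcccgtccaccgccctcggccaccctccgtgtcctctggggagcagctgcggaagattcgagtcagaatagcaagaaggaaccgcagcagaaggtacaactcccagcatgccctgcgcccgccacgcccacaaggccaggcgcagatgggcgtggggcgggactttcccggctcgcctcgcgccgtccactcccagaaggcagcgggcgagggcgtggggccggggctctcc
Kif23 (chr9:61946770-61947039, minus strand): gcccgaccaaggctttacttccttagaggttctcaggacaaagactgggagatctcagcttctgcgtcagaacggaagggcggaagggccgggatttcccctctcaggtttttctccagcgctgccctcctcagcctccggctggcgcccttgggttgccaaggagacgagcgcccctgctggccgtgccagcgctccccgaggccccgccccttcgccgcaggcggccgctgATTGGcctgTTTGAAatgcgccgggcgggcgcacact
Plk1 (chr7:122159195-122159464, plus strand): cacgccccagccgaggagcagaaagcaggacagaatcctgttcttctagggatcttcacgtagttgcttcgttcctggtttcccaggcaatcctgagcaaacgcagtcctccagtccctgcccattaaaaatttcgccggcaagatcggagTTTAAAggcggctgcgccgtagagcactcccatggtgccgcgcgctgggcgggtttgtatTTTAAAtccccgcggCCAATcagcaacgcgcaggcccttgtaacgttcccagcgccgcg
Kif11 (chr19:37376142-37376411, plus strand): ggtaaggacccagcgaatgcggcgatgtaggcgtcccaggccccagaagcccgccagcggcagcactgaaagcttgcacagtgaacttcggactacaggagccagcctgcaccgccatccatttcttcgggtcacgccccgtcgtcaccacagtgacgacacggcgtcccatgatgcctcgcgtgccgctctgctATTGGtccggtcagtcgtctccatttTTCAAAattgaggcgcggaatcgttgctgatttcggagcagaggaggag
They differ in layout. The Top2a promoter carries 6 CCAAT boxes upstream of a CHR whose first base is at -23 from the start. Ccnb2 has 3 CCAAT boxes before a CHR whose first base is at 4, and Kif23 has a single box just before a CHR. The only CHR in Birc5 lies far upstream, and no CCAAT box was found there.

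**Figure D1:**
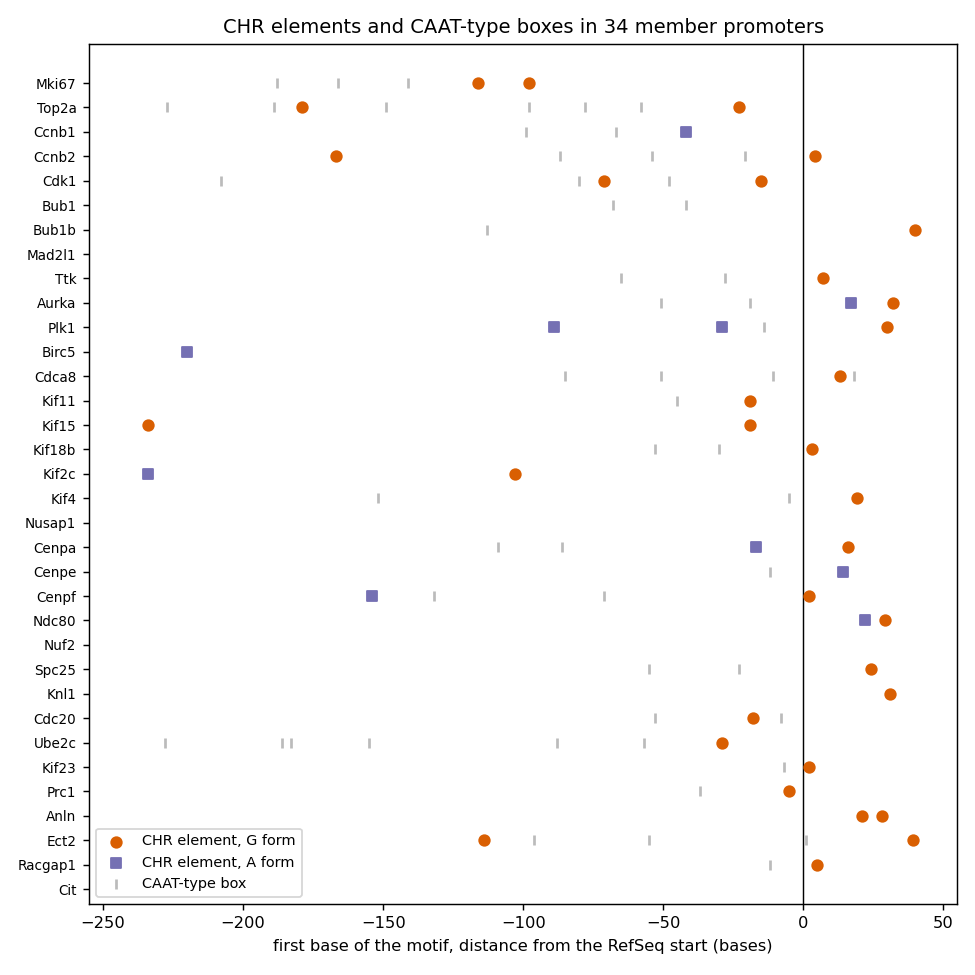
Each row is 1 of the 34 promoters and the x axis is the distance of a motif's first base from the RefSeq start in bases; circles are TTTGAA, squares TTTAAA and ticks CCAAT, on either strand. The CHR marks gather around the start, where 26 of the 34 promoters have at least 1, and most CCAAT ticks lie upstream of them.

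Total counts ran from 11266420 to 24775863 per library. Hepatocyte markers summed to between 115075 and 174004 CPM (counts scaled to library size) and none of the 12 was at 0 in any library. In all, 3 libraries stood apart and are given separately where a result rests on them. Knockout CCl4 library 3 had 34.3% mitochondrially encoded counts and 5549.8 CPM of 16 macrophage markers, against at most 394 elsewhere. Untreated wild type library 5 had 30.7% mitochondrially encoded counts. Knockout CCl4 library 2 had the highest level of 39 of the 40 genes. Yap1 and Wwtr1 themselves were lower in the knockouts, with log2 differences of -3.91 ± 0.47 and -2.77 ± 0.31 (SE) without CCl4 and -5.39 ± 0.58 and -2.06 ± 0.33 after it. The sum over the 40 genes, in CPM of TMM-scaled libraries, was 28.4, 32.5, 52.6, 108 and 630 in untreated wild type libraries 1 to 5, and 35.2, 27.6, 32.3 and 23.3 in untreated knockout libraries. After CCl4 it was 333, 188, 238, 152 and 138 in wild type and 479, 1716 and 454 in the knockout. Except for untreated wild type library 5, every untreated library thus lay below every CCl4 library.

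**Figure D2:**
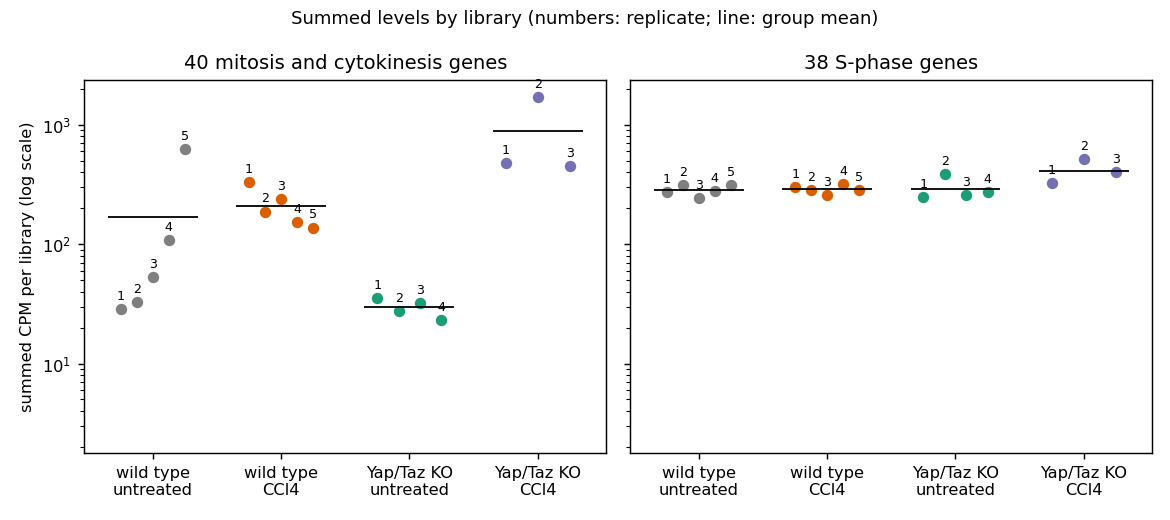
Summed CPM per library on a log axis for the 40 mitosis and cytokinesis genes (left) and 38 S-phase genes (right), 1 numbered point per library and a line at each group mean. The left panel spans 23.3 to 1716 CPM and the right panel 244 to 515 CPM. Untreated wild type library 5 is at 630 on the left and 311 on the right. The right panel includes Mcm10, whose counts were lower in knockout CCl4 libraries than in untreated knockout libraries.

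In the knockout, all 40 genes rose after CCl4, by a median log2 fold change of 5.77, where the median of all genes tested was 0.01. Of all genes tested, 12.1% were called higher in this comparison (edgeR quasi-likelihood test, Benjamini-Hochberg adjusted p under 0.05, as for every call below). For each of the 40, the lowest CCl4 library exceeded the highest untreated library, which held for 14.4% of all genes. The rises ran from log2 1.48 for Spc25 to 9.03 for Bub1b. In bulk RNA, more dividing cells and more of these transcripts per cell cannot be told apart. Untreated levels were near the limit of detection: 17 of the 40 genes had under 20 counts over the 4 untreated knockout libraries, so they passed the filter through libraries where they are high, and a difference between groups is then partly built in.

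Mki67, a coat protein of mitotic chromosomes used as a marker of cycling cells, had 0.263, 0.0856, 0.605 and 0.0838 CPM in untreated knockout libraries and 43.1, 200.4 and 38.4 CPM after CCl4. Its log2 fold change was 8.33 ± 1.56 (SE; adjusted p = 0.00167), and every CCl4 library was far above every untreated library. Top2a, the topoisomerase that untangles sister chromatids, went from 0.22, 0.257, 0.44 and 0.67 to 14.7, 38.8 and 20.2 CPM, a log2 change of 5.97 ± 0.96 (adjusted p = 0.000695).

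The cyclin B and Cdk1 genes, which encode the kinase that drives entry into mitosis, had every CCl4 library above every untreated one. Ccnb1 had 0.132, 0, 0.22 and 0.168 CPM untreated and 21.2, 96.8 and 14.2 CPM after CCl4, a log2 change of 8.25 ± 1.73 (adjusted p = 0.00346). Ccnb2 had 0.263, 0.342, 0.22 and 0.168 CPM untreated and 29.7, 67 and 24.3 CPM after CCl4, a log2 change of 7.31 ± 1.21 (adjusted p = 0.000806). Both B cyclins were highest in library 2 and lowest, among CCl4 libraries, in library 3. Cdk1 rose by 5.71 ± 1.14 and Ccna2, the cyclin of S phase and mitotic entry, by 5.53 ± 1.04.

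The spindle checkpoint holds anaphase until kinetochores are attached, and its 4 genes rose by log2 4.23 to 9.03. Bub1b (BUBR1), which inhibits Cdc20, had a single read over the 4 untreated libraries and 843 counts over the 3 CCl4 libraries, a ratio of 949 (95% counting interval 169.8 to 37523). Its CPM after CCl4 were 4.25, 25.1 and 5.59. The checkpoint kinase Bub1 had counts in 1 of the untreated libraries only, at 0.33 CPM, and 3.29, 15.7 and 1.73 CPM after CCl4, with a log2 change of 6.16 ± 1.42 (adjusted p = 0.00611). Mad2l1 (MAD2), the Cdc20 inhibitor recruited to free kinetochores, went from 0.527, 1.45, 1.43 and 1.51 to 15.8, 40.8 and 11.6 CPM and rose by 4.23 ± 0.67. Ttk (MPS1), the kinase at the top of this checkpoint, rose by 6.66 ± 1.39.

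Aurka and Plk1 encode kinases of centrosome maturation and spindle assembly. Plk1 had 0.176, 0.171, 0.11 and 0.0838 CPM untreated and 11.9, 52.9 and 9.77 CPM after CCl4, a log2 change of 7.42 ± 1.48 (adjusted p = 0.00258). Aurka had 1.36, 1.71, 1.87 and 1.34 CPM untreated and rose to 9.81, 35.1 and 9.53 CPM, a log2 change of 3.53 ± 0.80. The chromosomal passenger complex, which corrects wrong attachments and later guides the cleavage furrow, comprises the kinase Aurkb, the scaffold Incenp, survivin (Birc5) and borealin (Cdca8). All 4 rose, by log2 5.91 ± 1.23, 4.21 ± 0.73, 5.36 ± 0.93 and 4.01 ± 0.80 in that order. Birc5 CPM were 1.36, 1.2, 0.33 and 0.921 untreated and 27.1, 58.4 and 32.6 after CCl4. Incenp CPM were 0.746, 0.513, 0.714 and 0.586 untreated and 6.76, 15.2 and 14.3 after CCl4, so libraries 2 and 3 were close for this gene.

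The 7 spindle motor and microtubule genes rose by log2 3.76 to 8.21. Tpx2, an activator of Aurora A on spindle microtubules, had 0.176, 0.171, 0.769 and 0.0838 CPM untreated and 27.6, 85.5 and 19.9 CPM after CCl4, a log2 change of 7.09 ± 1.54 (adjusted p = 0.00425). Kif11 (Eg5), the motor that pushes spindle poles apart, had 0.878, 0.428, 0.769 and 0.586 CPM untreated and 7, 21.8 and 6.46 CPM after CCl4, a log2 change of 4.10 ± 0.83 (adjusted p = 0.00276). Kif18b, a plus-end motor that shortens astral microtubules, had 1 read in untreated libraries and 449 counts after CCl4, a ratio of 505 (95% counting interval 90.2 to 20006). Kif2c (MCAK), a microtubule depolymerase at centromeres, rose by 4.59 ± 1.17, the chromokinesin Kif4 by 5.22 ± 1.24 and the microtubule bundler Nusap1 by 5.13 ± 1.22. Kif15, a motor that can stand in for Kif11, had 0.0878, 0, 0.33 and 0.251 CPM untreated and 1.49, 3.15 and 2.52 CPM after CCl4, and rose by 3.76 ± 1.08 (adjusted p = 0.0212). Its call was lost without CCl4 library 2, or without untreated library 1 or 2 of the knockout (adjusted p = 0.0598, 0.0612 and 0.0511).

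Centromere and kinetochore genes held both the smallest changes and some of the largest. Spc24 and Spc25 encode the inner pair of the NDC80 complex, and Ndc80 and Nuf2 its outer, microtubule-binding pair. Spc24 had 8.08, 6.85, 4.56 and 4.52 CPM untreated and 14.5, 25.7 and 12.7 CPM after CCl4, a log2 change of 1.55 ± 0.30. Spc25 had 7.82, 2.22, 5.39 and 2.68 CPM untreated and 11.8, 18.2 and 8.35 CPM after CCl4, a log2 change of 1.48 ± 0.48 (adjusted p = 0.0377). Both inner genes were thus well detected before injury, while the outer pair was almost absent. Ndc80 had 1 read untreated and 227 counts after CCl4, a ratio of 256 (95% counting interval 45.4 to 10136), and Nuf2 rose by 7.17 ± 1.51. Cenpa, the centromeric histone, also had an untreated level of 4.92, 2.82, 3.85 and 2.93 CPM and rose by 2.77 ± 0.58 to 16.6, 39.3 and 18.7 CPM. The kinetochore motor Cenpe rose by 7.20 ± 1.50 and the scaffold Knl1, on which Bub1 docks, by 3.39 ± 0.74. Cenpf, a large outer kinetochore protein, was uneven, at 5.26, 106 and 4.65 CPM after CCl4, with a log2 change of 6.95 ± 2.08 that was 3.99 without library 2 (adjusted p = 0.209). The Cenpf call was also lost without untreated knockout library 1, 2 or 4 (adjusted p = 0.0726, 0.0663 and 0.0697). The Spc25 call was lost without CCl4 library 1 or 2 of the knockout or untreated library 2, 3 or 4 (adjusted p = 0.0529, 0.174, 0.0987, 0.0586 and 0.101).

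Cdc20, the activator of the anaphase-promoting complex and the target of the checkpoint, had 0.395, 0.171, 0.44 and 0.0838 CPM in untreated knockout libraries and 30.7, 122 and 31.4 CPM after CCl4. Its log2 change was 7.65 ± 1.64 (adjusted p = 0.0039). Ube2c, the ubiquitin-conjugating enzyme of the same complex, went from 1.36, 0.0856, 0.22 and 0.168 to 7.83, 31.9 and 10.3 CPM, a log2 change of 5.03 ± 1.29 (adjusted p = 0.0118).

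All 7 cytokinesis genes rose, by log2 3.97 to 8.04. Prc1, which bundles the central spindle, had 0.79, 0.513, 1.43 and 2.6 CPM untreated and 13, 34.9 and 14.3 CPM after CCl4, a log2 change of 3.97 ± 0.90. Kif23 and Racgap1 form centralspindlin, which recruits Ect2, the activator of RhoA at the furrow. Kif23 had 1 read untreated and 367 counts after CCl4 (ratio 413, 95% counting interval 73.7 to 16360.3), and was the only gene of the 40 whose highest library was CCl4 library 3, at 8.66 CPM against 8.19 in library 2. Racgap1 went from 0.439, 1.8, 0.275 and 0.0838 to 17.1, 77.3 and 10.9 CPM, a log2 change of 5.82 ± 1.27. Ect2 had 0.263, 0.856, 1.37 and 0.503 CPM untreated and 8.61, 68.3 and 9.45 CPM after CCl4, a log2 change of 5.26 ± 1.00. The furrow scaffold Anln rose by 7.17 ± 1.41, Kif20a, which carries the passenger complex to the midzone, by 5.94 ± 1.22, and the midbody kinase Cit by 5.59 ± 1.18.

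Per kilobase of exon, the highest mean levels after CCl4 in the knockout were those of Cdc20 (32.9 CPM per kb) and Ccnb2 (26.3 CPM per kb), and the lowest those of Kif15 (0.217 CPM per kb) and Cit (0.265 CPM per kb). In untreated knockout libraries Spc24 (2.33 CPM per kb) and Spc25 (1.42 CPM per kb) were highest and Ndc80 (0.00212 CPM per kb) was lowest. The median of the 40 ratios of library 2 to library 1 was 3.50, and to library 3 it was 3.48. Library 1 exceeded library 3 for 21 of the 40 genes, a median ratio of 1.02. Library 2 was the highest of the 17 libraries for 39 of these genes and for 11.5% of all genes tested.

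Without library 3, the library of high macrophage and mitochondrial counts, all 40 genes were still called higher, while calls over all genes in either direction went from 19% to 11.7%. Without library 2, 37 were (15.1% of all genes in either direction), and the median log2 change was 4.63. Summed macrophage markers were 166, 394 and 5549.8 CPM in CCl4 libraries 1 to 3 of the knockout and 29.2 to 68.7 CPM in untreated ones. Endothelial markers were 171, 127 and 1115 CPM against 29.8 to 43.3 CPM, and stellate and myofibroblast markers 83.2, 101 and 220 CPM against 7.14 to 10.7 CPM. Reln alone made up 39.9, 87.1 and 18.4 CPM of the stellate sums after CCl4 and 5.44 to 9.24 CPM of the untreated ones. Apart from Reln, only Acta2 of these stellate markers was higher in library 2 than in library 1. B and plasma cell markers were 0.538, 7.33 and 293 CPM against 0.428 to 2.47 CPM, neutrophil and monocyte markers 2.27, 4.15 and 32.7 CPM against 0.834 to 1.68 CPM, and T and NK cell markers at most 6.66 CPM in any library. None of the 16 macrophage markers was at 0 in a CCl4 library of the knockout. Mpeg1 alone made up most of the macrophage sum in each untreated knockout library, but not in any knockout CCl4 library. As a ratio, the macrophage sums thus show a smaller rise than the other macrophage markers had together. Library 2, with the highest mitotic sum, had the highest macrophage sum after library 3. The part of these other cells in the rise was not tested.

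**Figure D3:**
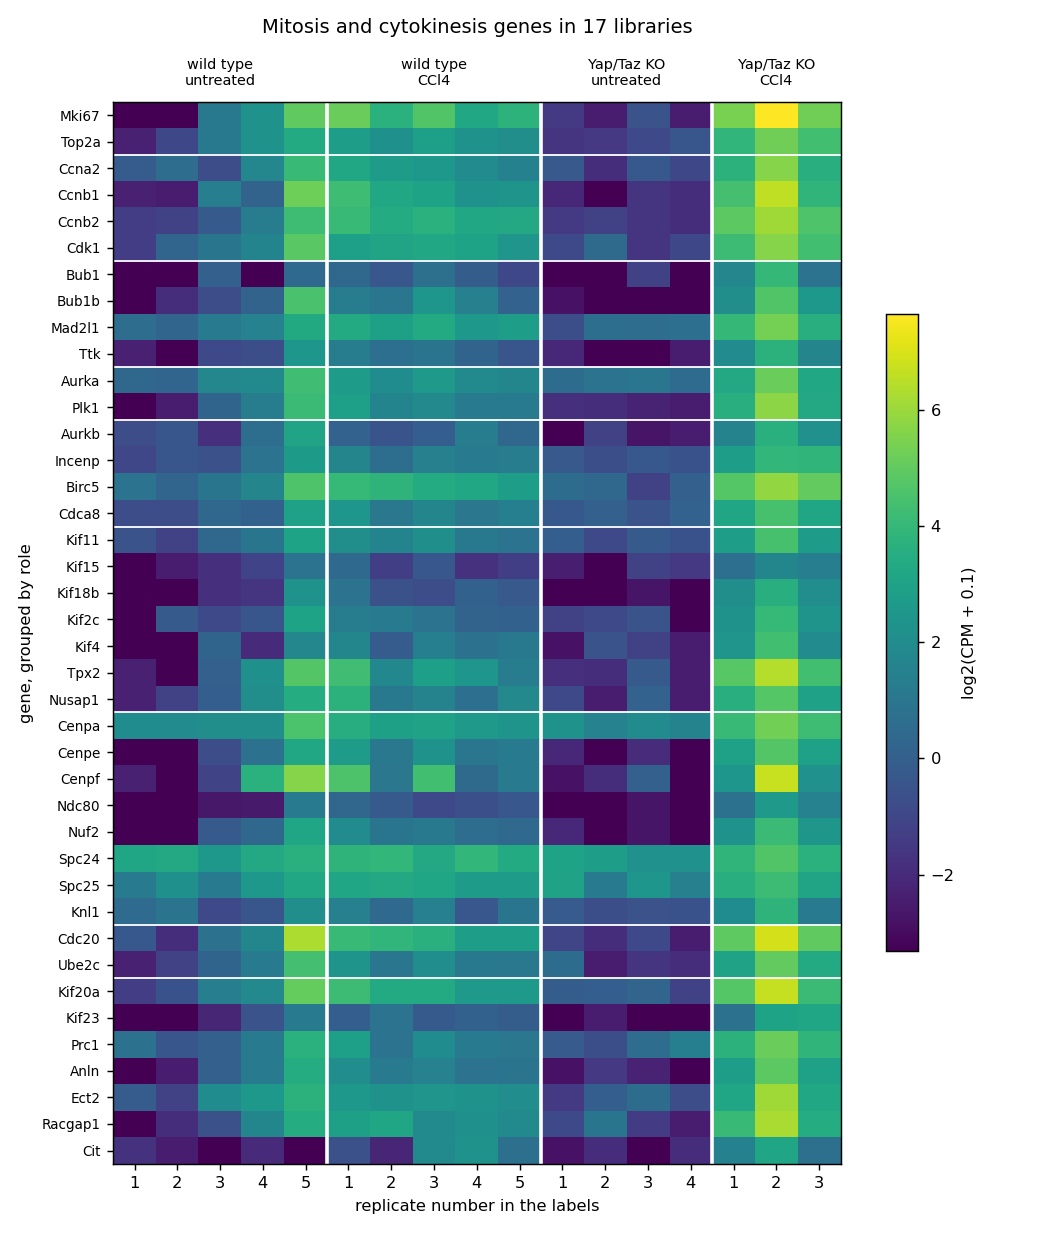
Level of each of the 40 genes (rows, grouped by role) in each of the 17 libraries (columns, numbered as in the labels), as log2(CPM + 0.1) on the colour scale. Knockout CCl4 library 2 is the brightest column, untreated wild type library 5 is bright among untreated columns, and the Spc24 row spans 4.52 to 25.7 CPM.

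In wild type hepatocytes, with all 5 untreated libraries, only the midbody kinase Cit was called higher after CCl4, 1 of 40 genes where 0.576% of all genes were called higher. Cit CPM were 0.202, 0.0834, 0, 0.147 and 0 untreated and 0.561, 0.126, 3.57, 4.93 and 1.55 after CCl4, a log2 change of 4.64 ± 1.04 (adjusted p = 0.0468). The groups overlapped for Cit, since CCl4 library 2 was below untreated library 1, and its call was lost when any of 12 libraries was left out (adjusted p up to 0.12). No gene of the 40 was above every untreated library in every CCl4 library (3.15% of all genes were), 27 had a positive log2 change (37 with library totals in place of TMM) and the median was 0.25. An unadjusted p under 0.05 was found for 2 of the 40 and for 14.7% of all genes.

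That comparison turned on untreated wild type library 5. Left out, all 40 log2 changes were positive with a median of 1.94, 20 genes were higher in every CCl4 library than in the remaining 4 untreated libraries (4.78% of all genes), and 6 were called higher, where 0.643% of all genes were. An unadjusted p under 0.05 was then found for 32 of the 40 and for 14% of all genes. The values in the next paragraph leave this library out.

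Ccnb2 had 0.302, 0.334, 0.754 and 2.43 CPM in untreated libraries 1 to 4 and 17.1, 10.7, 12.9, 9.27 and 9.87 CPM after CCl4, a log2 change of 3.60 ± 0.50 (adjusted p = 0.00399). Birc5 had 1.71, 1.08, 1.82 and 3.1 CPM untreated and 16, 14, 10.7, 9.42 and 7.08 CPM after CCl4, a log2 change of 2.55 ± 0.39 (adjusted p = 0.00594). For both genes every CCl4 library was above these 4 untreated ones. Mad2l1 had 1.41, 1.08, 2.26 and 2.8 CPM untreated and 10.3, 7.44, 10.5, 5.61 and 6.7 CPM after CCl4, a log2 change of 2.08 ± 0.42 (adjusted p = 0.0287). Cdc20 had 0.706, 0.167, 1.63 and 3.17 CPM untreated and 16.8, 14.7, 12.4, 6.88 and 6.7 CPM after CCl4, a log2 change of 2.97 ± 0.62 (adjusted p = 0.0317). With library 5 included the Cdc20 estimate had the other sign, -0.55 ± 1.01 (adjusted p = 0.853). Ndc80 had 2 counts in all over these 4 untreated libraries, and its CPM after CCl4 were 1.12, 0.756, 0.428, 0.537 and 0.697. The ratio of counts was 17.2 (95% counting interval 4.58 to 145), and the fitted log2 change was 3.98 ± 0.79 (adjusted p = 0.0277). Cdca8 rose by 1.90 ± 0.41 (adjusted p = 0.0418). The remaining 34 genes were not called, among them Mki67, at 0, 0, 2.07 and 4.79 CPM untreated and 35.3, 12.7, 25.5, 9.27 and 13.4 CPM after CCl4 (log2 3.42 ± 0.87, adjusted p = 0.0855).

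**Figure D4:**
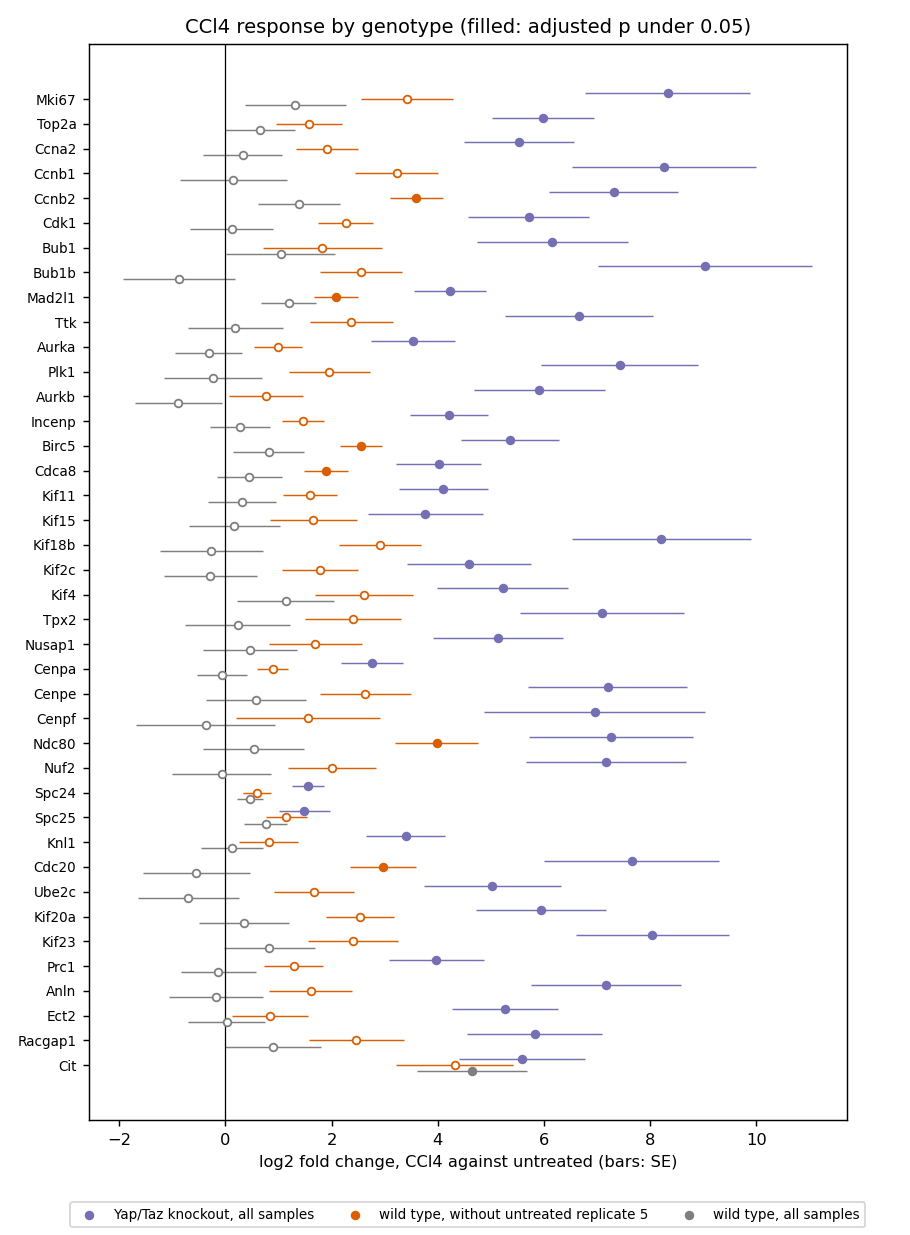
Log2 fold change of each gene, CCl4 against untreated, with its SE as a bar: knockout (purple), wild type with all libraries (grey) and wild type without untreated library 5 (orange), filled where the adjusted p was under 0.05. All 40 knockout points are filled and positive, 1 grey point (Cit) and 6 orange points are filled, and every orange point is positive.

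Untreated wild type library 5 carried a mitotic profile without injury. It exceeded the other 4 untreated wild type libraries for 39 of the 40 genes, against 22.6% of all genes tested, and the exception was Cit, with no counts there. It was the highest of the 9 untreated libraries of both genotypes for the same 39 genes (14.1% of all genes), and exceeded all 5 wild type CCl4 libraries for 33 (23.9% of all genes). The median ratio to the mean of the other 4 was 11.7. Cdc20 was at 77.9 CPM against at most 3.17 CPM in the other 4, and Cenpf at 50.6 CPM against at most 12.9 CPM. Ccnb1 was at 37.7 CPM against at most 2.45 CPM, and Bub1b at 22.3 CPM against at most 1.03 CPM.

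The ratio to the other libraries differed between role groups. Summed over the group, the partners of the anaphase-promoting complex (Cdc20 and Ube2c) were 42.3 times the mean of the other 4 untreated wild type libraries, and the cyclins with Cdk1 were 20.7 times. The spindle checkpoint was 13.8 times, spindle motors 13.2 times, passenger complex 11 times and cytokinesis genes 10.6 times the mean of the other 4. Centromere and kinetochore genes were lowest at 5.54 times, and within that group Spc24 was at 12.4 CPM against 5.59 to 9.84 CPM in the others. The S-phase genes summed to 311 CPM, 1.13 times the mean of the other 4, and the regulators to 249 CPM, 0.959 times. Mcm10 was the largest part of that S-phase sum, with 1244 counts. It had 682, 1370, 902 and 729 counts in untreated wild type libraries 1 to 4. The ratio of summed mitotic to summed S-phase CPM was 2.03 in this library, 0.104 to 0.389 in the other untreated wild type libraries, 0.48 to 1.11 in wild type CCl4 libraries and 1.14 to 3.34 in knockout CCl4 libraries. Against knockout CCl4 library 1 it was higher for 24 of the 40 genes, against library 3 for 25 and against library 2 for 0. Beside its mitochondrial share of 30.7%, its macrophage markers summed to 77.0 CPM, of which Mpeg1 made up 63.5 CPM while Cd68 and Gpnmb were at 0. Its endothelial markers summed to 58.5 CPM, of which Pecam1 made up 42.6 CPM while Tek and Lyve1 were at 0. Both sums were the highest of the 9 untreated libraries, where the others reached at most 68.7 and 55.3 CPM. They lay within the range of the wild type CCl4 libraries (54.3 to 152 CPM and 49.9 to 220 CPM). Each sum thus rested mostly on a single gene and does not rank the libraries by the other markers. In wild type CCl4 libraries Mpeg1 was at 29.5 to 58.3 CPM and Pecam1 at 2.9 to 8.32 CPM. The cause of this profile was not tested.

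Untreated wild type library 4 had the next highest sum, 108 CPM against 28.4 to 52.6 CPM in libraries 1 to 3. For Cenpf it was at 12.9 CPM against at most 0.377 CPM in libraries 1 to 3. The wild type CCl4 libraries also differed among themselves: library 1 exceeded library 5 for 38 of the 40 genes, by a median ratio of 2.29. Cenpf differed widely among them, at 24.2, 1.95, 20.1, 1.27 and 2.13 CPM.

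**Figure D5:**
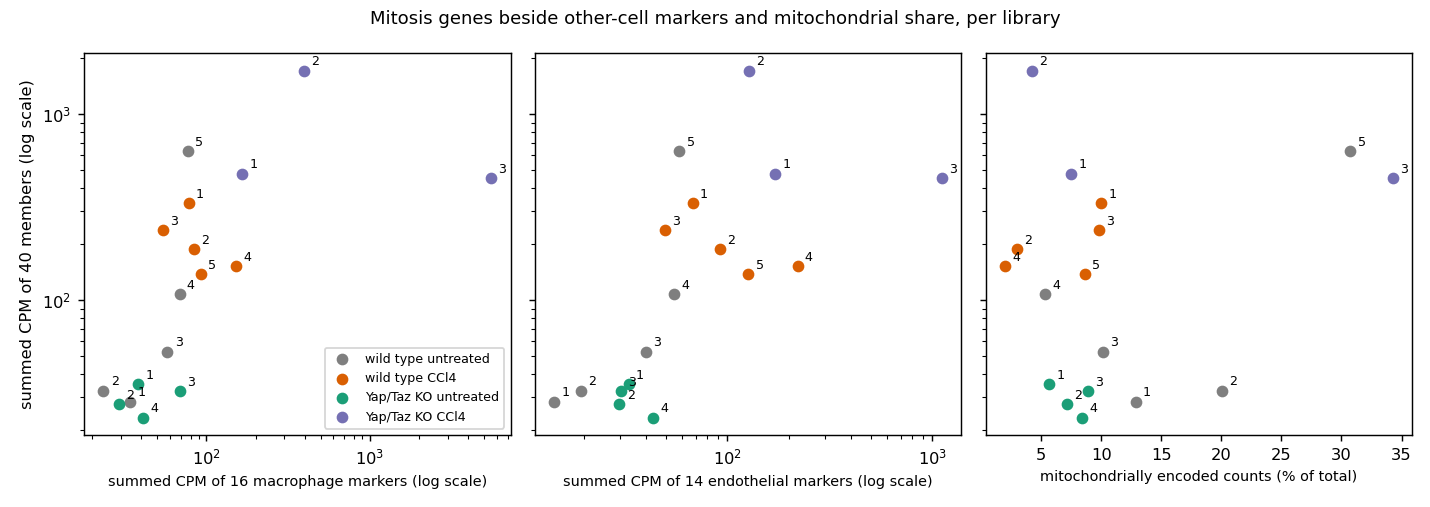
Summed CPM of the 40 genes per library (log y axis) against summed macrophage markers and summed endothelial markers (log x axes) and against the percent of mitochondrially encoded counts, 1 numbered point per library coloured by group. Knockout CCl4 library 3 lies far right in all panels at a mitotic sum of 454 CPM, below library 2 at 1716 CPM. Untreated wild type library 5 stands at 630 CPM with macrophage markers at 77.0 CPM, of which Mpeg1 made up 63.5 CPM.

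Without CCl4, no gene of the 40 was called lower or higher in the knockout than in wild type, where 0.35% of all genes were called lower and 0.583% higher. The median log2 difference was -3.11 and 31 of the 40 had an unadjusted p under 0.05, against 8.77% of all genes. Without wild type library 5 the median was -1.46, 16 had an unadjusted p under 0.05 (8.78% of all genes) and again 0 were called lower, where 0.38% of all genes were. DESeq2, run on all 17 libraries, called 17 of the 40 lower and gave 7 no adjusted p. It also called more of all genes than edgeR did in this comparison, as counted in the last section. The largest estimate was for Bub1b, with 0, 0.167, 0.503, 1.03 and 22.3 CPM in wild type and 1 read over 4 libraries in the knockout, a ratio of counts of 0.00304 with a 95% counting interval of 7.68e-05 to 0.0171 (log2 -7.75 ± 1.97, adjusted p = 0.0914). Ccnb1 had 0.101, 0.0834, 2.45, 1.03 and 37.7 CPM in wild type and 0.132, 0, 0.22 and 0.168 CPM in the knockout, a difference of -5.84 ± 1.64 (adjusted p = 0.137). Wild type libraries 2 to 5 exceeded every knockout library for Bub1b and libraries 3 to 5 did for Ccnb1, while the lower wild type libraries overlapped with the knockout. Spc25 and Cit had estimates near 0, -0.06 ± 0.43 and 0.07 ± 1.37.

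After CCl4, all 40 genes had higher fitted means in the knockout than in wild type, by a median log2 of 2.19. Every knockout library exceeded every wild type library for 30 of the 40, against 10.1% of all genes. Only Incenp, Cenpa, Prc1 and Ect2 were called higher, 4 of 40 where 7.62% of all genes were. Incenp CPM were 3.05, 1.45, 2.68, 2.1 and 2.32 in wild type and 6.76, 15.2 and 14.3 in the knockout, a difference of 2.38 ± 0.62 (adjusted p = 0.021). Cenpa CPM were 11.3, 7.5, 7.89, 5.76 and 5.03 in wild type and 16.6, 39.3 and 18.7 in the knockout, a difference of 1.74 ± 0.53 (adjusted p = 0.0417). Neither gene's groups overlapped. Prc1 CPM were 7.11, 1.7, 3.96, 2.15 and 1.94 in wild type and 13, 34.9 and 14.3 in the knockout, a difference of 2.63 ± 0.78 (adjusted p = 0.0373). For Ect2 the CPM were 5.74, 4.66, 5.24, 4.73 and 4.06 in wild type and 8.61, 68.3 and 9.45 in the knockout, a difference of 2.56 ± 0.80 (adjusted p = 0.0479), so most of its mean came from library 2.

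The number called moved with the libraries that entered the fit. It was 26 without untreated wild type library 5 (8.31% of all genes), which is in neither group but shares the estimate of spread, and then included Aurka at 1.97 ± 0.45 (adjusted p = 0.0106), Cdca8 at 2.12 ± 0.39 (adjusted p = 0.0033) and Birc5 at 1.79 ± 0.36 (adjusted p = 0.00569). It was 0 without knockout CCl4 library 2 or 3 or wild type CCl4 library 2, 1 without wild type CCl4 library 3, 4 or 5, and 2 without untreated knockout library 3 or 4. Calls over all genes, in either direction, were 11.8% with every library and 9.58%, 2.94% and 7.4% in the 3 fits that called 0 of the 40. The 10 genes whose groups overlapped were Ccnb1, Bub1b, Nusap1, Cenpf, Spc24, Spc25, Knl1, Kif20a, Kif23 and Cit. Among them Spc24 had 13.8, 15.1, 9.85, 15.2 and 10.4 CPM in wild type and 14.5, 25.7 and 12.7 CPM in the knockout, a difference of 0.46 ± 0.28 (adjusted p = 0.328).

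The difference between the 2 CCl4 effects, knockout minus wild type, was positive for all 40 genes with a median log2 of 5.28, and 10 were called, where 0.794% of all genes were called higher. They were Top2a, Bub1b, Plk1, Aurkb, Incenp, Kif18b, Cdc20, Kif23, Anln and Ect2, with estimates from 3.94 ± 0.91 for Incenp to 9.90 ± 2.30 for Bub1b and adjusted p from 0.0431 to 0.0495. This contrast includes the high untreated wild type library 5. Without it the median was 3.44, all 40 stayed positive, 36 had an unadjusted p under 0.05 (15.1% of all genes) and 0 were called, where 0.0731% of all genes were called higher. Plk1 shows the shift. Its difference was 7.66 ± 1.72 (adjusted p = 0.0455) with every library and 5.46 ± 1.26 (adjusted p = 0.0678) without library 5. Of the 17 fits that each left out 1 library, 13 called 0 of the 40. The other 4, without untreated wild type library 1, 2 or 3 or knockout CCl4 library 1, called 18, 20, 12 and 30. Over all genes, those 13 fits called 0 to 0.778%, and the other 4 called 0.975%, 0.902%, 1.02% and 5.99%, in either direction. This contrast shares its samples with the comparisons above.

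Other genes of mitosis, from a list of 73 that excludes the 40, were counted in the same way. Of all genes, 12.1% were called higher after CCl4 in the knockout and 19% were called in either direction. Of the 73, 59 were called higher and 1 lower there, with a median log2 change of 3.86. The 4 with the smallest adjusted p were Ncapg2, a condensin II subunit (log2 3.88 ± 0.56), Pkmyt1, an inhibitory kinase of Cdk1 (6.62 ± 1.03), the mitotic kinase Pbk (7.44 ± 1.17) and Arhgap11a (4.69 ± 0.76). In wild type with all libraries 0 of the 73 were called, where 0.576% of all genes were called higher. Without untreated library 5 it was 5 of the 73 (0.643% of all genes), led by Cdca3 at 2.84 ± 0.53 (adjusted p = 0.0206). Knockout against wild type after CCl4, 15 were called higher (7.62% of all genes), led by the kinetochore gene Dsn1 at 2.52 ± 0.48 (adjusted p = 0.00349). Without CCl4, Pkmyt1 was the only gene of the list called, lower in the knockout at log2 -4.64 ± 0.98 (adjusted p = 0.0266), and at -3.24 ± 0.67 (adjusted p = 0.0283) without wild type library 5. Of all genes, 0.35% were called lower there, and 0.38% without that library. Pkmyt1 had 1, 0, 1 and 1 counts in untreated knockout libraries and 2, 5, 5, 14 and 64 in untreated wild type libraries 1 to 5. Its estimates in this paragraph thus rest on a level near 0 in the untreated knockout. The difference of CCl4 effects was called for 10 of the 73, where 0.794% of all genes were called higher. Without library 5 it was called for Pkmyt1 alone (4.93 ± 0.82, adjusted p = 0.0428), where 0.0731% of all genes were called higher. In untreated wild type library 5, 64 of the 73 were at their highest among the 5 untreated wild type libraries, against 22.6% of all genes tested.

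The list of 21 regulators of mitotic genes held DREAM and MuvB subunits, E2F, DP and NF-Y factors, B-MYB and FOXM1. Of these, 3 were called higher and 2 lower after CCl4 in the knockout. Of all genes, 12.1% were called higher and 19% in either direction, so these counts were near the share of all genes. Foxm1, the forkhead activator of these genes, had 0.132, 0.171, 0.22 and 0.168 CPM untreated and 5.62, 27.8 and 6.54 CPM after CCl4, a log2 change of 6.23 ± 1.06 (adjusted p = 0.000964). Library 2 was its highest library, as for 39 of the 40 genes. E2f1 rose by 1.83 ± 0.24 (adjusted p = 0.000273) and Rbl1 (p107), a pocket protein, by 2.78 ± 0.50 (adjusted p = 0.00135). Rbbp4, a MuvB subunit, fell, with a log2 change of -1.05 ± 0.20 (adjusted p = 0.00194), and so did the DREAM pocket protein gene Rbl2 (p130), at -0.89 ± 0.26. Mybl2 (B-MYB), E2f7 and E2f8 were not called, with log2 changes of 0.81 ± 0.70, 1.20 ± 0.51 and 1.03 ± 0.66.

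In wild type Foxm1 was at 0.302, 0.167, 0.754, 0.884 and 6.36 CPM untreated and 5.61, 6.37, 3.07, 2.24 and 2.86 CPM after CCl4, so untreated library 5 was about as high as the highest CCl4 library. Its log2 change was 1.22 ± 0.72 (adjusted p = 0.46), and 2.87 ± 0.58 (adjusted p = 0.0287) without library 5. Mybl2, E2f1, E2f7 and E2f8 were not called there, at -1.06 ± 0.62, 0.32 ± 0.20, -0.65 ± 0.42 and 1.84 ± 0.57. E2f8 had 40, 63, 122, 49 and 602 counts in wild type CCl4 libraries 1 to 5, so its mean there came mostly from CCl4 library 5. Mybl2 had only 7, 1, 7, 5 and 6 counts in the same libraries. Between genotypes without CCl4 the estimates were -3.27 ± 0.98 for Foxm1, -0.83 ± 0.22 for E2f1, 0.10 ± 0.64 for Mybl2, -1.11 ± 0.46 for E2f7 and 0.70 ± 0.60 for E2f8, none called. After CCl4 they were 1.73 ± 0.78 for Foxm1, 0.68 ± 0.22 for E2f1, 1.98 ± 0.67 for Mybl2, 0.73 ± 0.47 for E2f7 and -0.10 ± 0.63 for E2f8, none called, while Rbl2 was lower at log2 -0.81 ± 0.25 (adjusted p = 0.046). The difference of CCl4 effects was called for E2f1, at 1.51 ± 0.31 (adjusted p = 0.0431), and not for Foxm1 (5.00 ± 1.25, adjusted p = 0.0586), Mybl2 (1.87 ± 0.93), E2f7 (1.84 ± 0.66) or E2f8 (-0.81 ± 0.88).

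Of 38 S-phase genes, 37 were tested, and after CCl4 in the knockout 19 were called higher (12.1% of all genes) and 1 lower. The median log2 change of the 37 was 1.33, beside 5.77 for the mitosis genes. The helicase genes Mcm6 (3.14 ± 0.40), Mcm2 (3.13 ± 0.41) and Mcm5 (3.62 ± 0.51) and the nucleotide reductase gene Rrm2 (2.81 ± 0.38) had the smallest adjusted p. In wild type Mcm6 alone of the 37 was called, at 1.61 ± 0.33 (adjusted p = 0.0291) with all libraries and 1.91 ± 0.33 (adjusted p = 0.0119) without untreated library 5. Of all genes, 0.576% and 0.643% were called higher in those fits, in that order. After CCl4, 14 of the 37 were called higher in the knockout than in wild type, where 7.62% of all genes were. They were led by Mcm5 at 2.27 ± 0.45 and the origin factor Orc1 at 4.89 ± 0.96. Orc1 had 0, 2, 0, 2 and 1 counts in wild type CCl4 libraries and 29, 58 and 15 in knockout CCl4 libraries. It passed the filter through libraries where it is high, so its difference is partly built in. The difference of CCl4 effects was called for 4 of the 37, led by Mcm2 at 2.67 ± 0.52 (adjusted p = 0.0382), and for 0 without library 5. Of all genes, 0.794% were called higher for this difference, and 0.0731% without library 5. The S-phase sum was 326, 515 and 399 CPM in knockout CCl4 libraries 1 to 3, against 248, 386, 259 and 273 CPM in untreated knockout libraries, so the latter overlapped with the former. This sum includes Mcm10, whose counts were lower in every knockout CCl4 library than in every untreated knockout library. Taken gene by gene, 21 of the 37 were higher in every CCl4 library than in every untreated one, and 1 was lower. The overlap of the sums thus does not describe most of these genes.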

How the data were processed

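RNA-seq libraries of sorted mouse hepatocytes (RNA by Qiagen MicroRNEasy, libraries by NEBNext Ultra II, per the labels' protocols) were deposited by the authors as 1 table of raw counts per Ensembl gene for 17 samples. STAR 2.4.1d, FastQC, DESeq2, edgeR, limma and mm10 are named in the submitters' processing notes. Not given in the sources used here: counting tool, strand setting, annotation. Total counts were 11266420 to 24775863 per library (median 14786573), no pair of replicates agreed within sampling noise, and intervals cover counting error only. Ensembl ids were paired with symbols through a gene name table, which matched 22914 of 23461 rows, and overlapping or antisense genes could share reads. Levels per kilobase used GENCODE exon lengths, with overlapping exons merged.

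All 17 samples entered 1 edgeR 4.0.16 quasi-likelihood fit (R 4.3.3) of 4 group means, with TMM scaling, filterByExpr (minimum count 10, minimum total 15) and robust dispersions. P-values were Benjamini-Hochberg adjusted over the 13721 genes tested, with 0.05 as threshold, and the code was tested on simulated data. SE is the log2 change divided by the square root of F. CPM use TMM-scaled totals. Alternatives were limma 3.58.1 voom, DESeq2 1.42.0, other scalings and filters, a replicate block, and left-out libraries.

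Named were all 40 genes, Yap1 and Wwtr1, up to 4 genes of each other list with the smallest adjusted p per comparison, and Foxm1, Mybl2, E2f1, E2f7 and E2f8. The genes, lists and tests were chosen with earlier results of these data known.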

Additional observations from a re-analysis of the deposited data

Results flagged for a closer look

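Within groups of 4 or 5 libraries, a library was singled out where its gap to the nearest other library exceeded Dixon's 95% limit. Chance singles out about 1 in 20 independent groups of normally distributed values, and here 44 of 129 were. That rate does not hold for CPM near 0. A library that alone has counts in its group is always singled out. This was so for Bub1, Bub1b, Kif18b, Ndc80 and Kif23 in the untreated knockout. These genes move together, and untreated wild type library 5 was already known to be high in them, so the number is a description and no test.

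Untreated wild type library 5 accounted for 30 of the 40 genes. Its CPM were 31.4 for Mki67, 16.5 for Ccna2, 37.7 for Ccnb1, 18.8 for Ccnb2 and 28.8 for Cdk1. Among checkpoint genes they were 22.3 for Bub1b, 9.97 for Mad2l1 and 5.28 for Ttk, and among mitotic kinases and the passenger complex 19.6 for Aurka, 17.7 for Plk1, 8.31 for Aurkb, 6.22 for Incenp, 24.6 for Birc5 and 7.73 for Cdca8. Spindle genes were at 8.17 for Kif11, 1.73 for Kif15, 4.84 for Kif18b, 8.09 for Kif2c and 26.2 for Tpx2. Kinetochore genes were at 23.1 for Cenpa, 9.4 for Cenpe, 50.6 for Cenpf, 2.24 for Ndc80 and 8.75 for Nuf2. Cdc20 was at 77.9 and Ube2c at 20.5, and cytokinesis genes at 33.0 for Kif20a, 2.1 for Kif23, 12.8 for Prc1 and 10.8 for Anln. The 40 genes summed to 630 CPM in this library, where the next untreated wild type library had 108, and the 73 other mitosis genes to 552 CPM, where the next had 218.

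Among wild type CCl4 libraries, library 1 stood out for Plk1 at 7.29 CPM, Tpx2 at 19.4 CPM and Nusap1 at 13 CPM, and library 2 for Kif23 at 1.7 CPM. Among untreated knockout libraries, library 3 stood out for Bub1 at 0.33 CPM, Kif18b at 0.055 CPM, Tpx2 at 0.769 CPM and Ndc80 at 0.055 CPM. Library 1 stood out for Bub1b at 0.0439 CPM, for Ube2c at 1.36 CPM and, on the low side, for Mad2l1 at 0.527 CPM, and library 2 for Kif23 at 0.0856 CPM. The values for Kif18b, Ndc80, Bub1b and Kif23 in the untreated knockout are each a single read.

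The CCl4 effect differed between genotypes in the test of the difference itself for 10 genes. The log2 differences, knockout minus wild type, were 5.33 for Top2a, 9.9 for Bub1b, 7.66 for Plk1, 6.79 for Aurkb, 3.94 for Incenp, 8.47 for Kif18b, 8.2 for Cdc20, 7.21 for Kif23, 7.35 for Anln and 5.24 for Ect2. Without untreated wild type library 5, 0 of these differences were called.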

How the results depend on the processing

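The rise of the 40 genes after CCl4 in the knockout was called for 38 to 40 of them under the edgeR and limma alternatives that kept the design's libraries, for 33 by DESeq2 with 7 given no adjusted p, and for 37 to 40 when 1 library was left out (median log2 4.63 to 6.05). Results that rest on the wild type groups moved more, and the cause was not tested. For CCl4 in wild type, 0 genes were called by voom, 0 with the replicate block and 8 without both libraries over 30% mitochondrial counts, with medians of 1.64, 1.54 and 1.93. Leaving out 1 library gave 0 to 6 calls and medians of -0.0011 to 1.94. Cdc20 went from -0.55 to 2.97 without untreated library 5 and without both high-mitochondrial libraries, and ran from -0.86 to 2.97 with 1 library left out. For the untreated genotypes, DESeq2 called 17 lower, medians were -1.96 by voom, -1.89 with the block and -1.46 without both libraries, and leaving out 1 library gave 0 to 2 calls and medians of -3.39 to -1.46. For the knockout after CCl4, 1 gene was called with no filter, 31 by voom and 20 without both libraries, and 0 to 26 (medians 1.26 to 2.51) with 1 library left out. For the difference of CCl4 effects, 0 were called with library totals, no filter, voom, the block or without both libraries (median 3.81), and 26 by DESeq2. Leaving out 1 library gave 0 to 30 calls and medians of 3.44 to 5.62.

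Calls over all genes also moved. They were 651 with library totals, 494 by DESeq2, 49 with the block and 187 without both libraries against 117 for CCl4 in wild type, and 328 by DESeq2 against 128 for the untreated genotypes. They were 867 with the block and 555 without both libraries against 1622 after CCl4, and for the difference 28 with library totals, 33 with no filter, 779 by DESeq2, 9 by voom, 3 with the block, 9 without both libraries and 0 to 867 with 1 library left out against 150. Library totals moved the median of all genes to 0.38 for CCl4 in wild type, 0.20 in the knockout, 0.14 for the untreated genotypes and -0.16 for the difference. The share of calls that were higher became 94.8% against 67.5%, 83.6% against 63.4%, 74.2% against 62.5% and 60.7% against 72.7%.

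The labels say that replicate numbers do not pair samples. The correlation of deviations in 22 same-numbered pairs was -0.257 to 0.199, and in 85 other pairs -0.232 to 0.245. With the replicate block, 38 of the 40 genes were called higher after CCl4 in the knockout, without Cenpf and Spc25. Depth limits the untreated knockout, where 17 of the 40 genes had under 20 counts.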
